A study of Mus musculus with 12 samples.

Results

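Messenger RNA levels of 38 genes of the complement and coagulation systems were examined in mouse liver. The genes were taken by name from a list of 38 symbols, 17 of complement and 21 of coagulation, and a gene was kept when its value exceeded 1 TPM in at least 3 of 12 libraries. TPM, a transcript's share of its library scaled to a fixed total, divides out gene length and library size. All 38 symbols were found and all 38 passed, each above 1 TPM in 12 of 12 libraries, among 12120 genes that passed of 31253 listed symbols.

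Complement is a cascade of plasma proteases and adaptor proteins that tags microbes and damaged cells. Recognition molecules start it, convertases built around C3 amplify it, and the terminal components assemble into a pore, the membrane attack complex. Coagulation is a second plasma protease cascade, in which thrombin turns fibrinogen into fibrin, with inhibitors and the fibrinolytic enzyme plasmin holding it in check. Hepatocytes make most of both systems and secrete them into blood, whereas C1q is made largely by macrophages, and several fibrinogen and complement genes are known as acute-phase genes.

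The livers came from male C57BL6 mice of 2 genotypes, WT and a knock-in of CUGBP1, an RNA-binding protein, whose allele name S302A denotes serine replaced by alanine. Untreated livers (WT_Ctrl and S302A_Ctrl) were compared with livers of mice that had been given the carcinogen diethylnitrosamine (DEN), which damages DNA in liver, when 3 weeks old (WT_DEN and S302A_DEN). The dose was 50 µg for each gram of body weight. Each of the 4 groups had n = 3 libraries, and age at collection is labelled 33 to 41 weeks, without an age for each library. The labels do not say whether each library is a separate animal, so p-values measure the spread between these libraries only, and they do not mention tumour tissue in any sample.

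Because TPM keeps no read counts, the depth behind each value is unknown. S302A_DEN replicate 3 stood apart. Its number of genes over 1 TPM was 13083, where the other 11 libraries had 10839 to 11653, and the summed TPM of 6 liver tumour markers was 766, against 8.88 to 35.5. The summed TPM of 9 macrophage markers, C1q not among them, was 215 in that library and 45.7 to 139 in the others. Of these 9, 6 lay above both other S302A_DEN replicates, as did 87.0% of all genes. All 8 hepatocyte markers lay above 1 TPM in every library. Their summed TPM was 78699 to 93817 in WT_DEN, above the 44048 to 68577 of the other groups. Alb alone was 46307 to 56369 TPM in WT_DEN and 21177 to 38664 in the other groups. The part of this rise in the values of members highest in WT_DEN was not tested. Calls and group differences that this library moves are given with and without it, and in whole liver fewer cells of a type and less RNA per cell cannot be told apart.

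The 3 fibrinogen genes lie together on chromosome 3 and their values moved together across libraries, and C6 and C8b showed the largest terminal-pathway differences for DEN in S302A without S302A_DEN replicate 3, so the promoters of these 5 genes are shown. Each sequence is from RefSeq (GRCm38.p6, the build of mm10), reads 5′ to 3′ on the gene's strand, and holds 250 bases before the annotated start and 10 from it. The windows are Fgg at chr3:83007474-83007733 (plus strand), Fga at chr3:83025903-83026162 (plus), Fgb at chr3:83049854-83050113 (minus), C6 at chr15:4726960-4727219 (plus) and C8b at chr4:104766067-104766326 (plus). Capitals mark CTGGGAA, the core of an interleukin-6 response element, or GTTAAT, a partial site of the hepatocyte factor HNF1, on either strand.
Fgg: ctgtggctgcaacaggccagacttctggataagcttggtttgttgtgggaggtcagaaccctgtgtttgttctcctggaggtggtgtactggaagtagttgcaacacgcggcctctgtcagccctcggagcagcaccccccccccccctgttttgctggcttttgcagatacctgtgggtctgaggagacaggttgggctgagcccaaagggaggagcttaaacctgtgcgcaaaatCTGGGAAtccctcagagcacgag
Fga: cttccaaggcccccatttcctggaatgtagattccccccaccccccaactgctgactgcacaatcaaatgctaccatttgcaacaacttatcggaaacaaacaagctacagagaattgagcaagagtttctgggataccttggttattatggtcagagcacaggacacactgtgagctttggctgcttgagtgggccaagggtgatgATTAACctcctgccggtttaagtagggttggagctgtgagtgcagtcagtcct
Fgb: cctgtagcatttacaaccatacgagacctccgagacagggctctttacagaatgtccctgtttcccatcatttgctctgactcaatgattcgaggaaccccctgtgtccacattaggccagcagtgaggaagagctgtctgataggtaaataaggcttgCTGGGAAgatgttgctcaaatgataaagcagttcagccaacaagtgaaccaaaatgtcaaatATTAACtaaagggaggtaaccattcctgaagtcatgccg
C6: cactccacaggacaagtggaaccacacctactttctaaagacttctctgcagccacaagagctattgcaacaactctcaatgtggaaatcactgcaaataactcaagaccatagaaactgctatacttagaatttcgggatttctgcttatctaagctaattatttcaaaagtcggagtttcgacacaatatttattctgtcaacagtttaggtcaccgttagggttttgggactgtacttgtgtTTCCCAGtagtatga
C8b: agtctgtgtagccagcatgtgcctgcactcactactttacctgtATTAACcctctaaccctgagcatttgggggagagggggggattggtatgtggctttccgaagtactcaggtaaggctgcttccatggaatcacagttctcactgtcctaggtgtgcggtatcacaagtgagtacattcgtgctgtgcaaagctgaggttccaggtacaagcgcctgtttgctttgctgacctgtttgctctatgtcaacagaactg
These 5 windows hold CTGGGAA in Fgg, Fgb and, on the opposite strand, C6, and the HNF1 motif on the opposite strand in Fga, Fgb and C8b.

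Promoter windows were found for 29 of the 38 members and were searched over 300 bases, 250 before and 50 from the start, on both strands. CTGGGAA was present in 6 of 29 members (20.7%: Masp2, C6, Fgb, Fgg, F9 and Vtn), against 11.1% of 32851 windows of the same length in the RefSeq table. GTTAATN, the HNF1 motif with any last base, was present in 7 of 29 (24.1%: C8a, C8b, Fga, Fgb, F2, F13b and Vtn), against 7.08% of windows. CAAAGTCCA, a direct repeat of the kind bound by HNF4, was present in 0 of 29, against 0.475% of windows. A match is a run of letters, not a measured site.

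Fgb and Fgg had the highest mean TPM of the 38 members in each of the 4 groups, and Pros1 the lowest in all but S302A_DEN, where it was Masp1. Mean TPM ran from 14.9 ± 1.19 (SD, n = 3) for Pros1 in S302A_Ctrl to 3763 ± 1730 for Fgb in S302A_DEN. The 17 complement genes together held 0.410% to 0.657% of a library's TPM and the 21 coagulation genes 1.14% to 2.10%, of which fibrinogen alone was 0.455% to 1.28%. Members differed in their range over the 12 libraries, such as 14.4 to 144 TPM for C1qa and 170.1 to 247 for F12. The heat map by library shows that the strongest deviations lay in S302A_DEN.

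**Figure D1:**
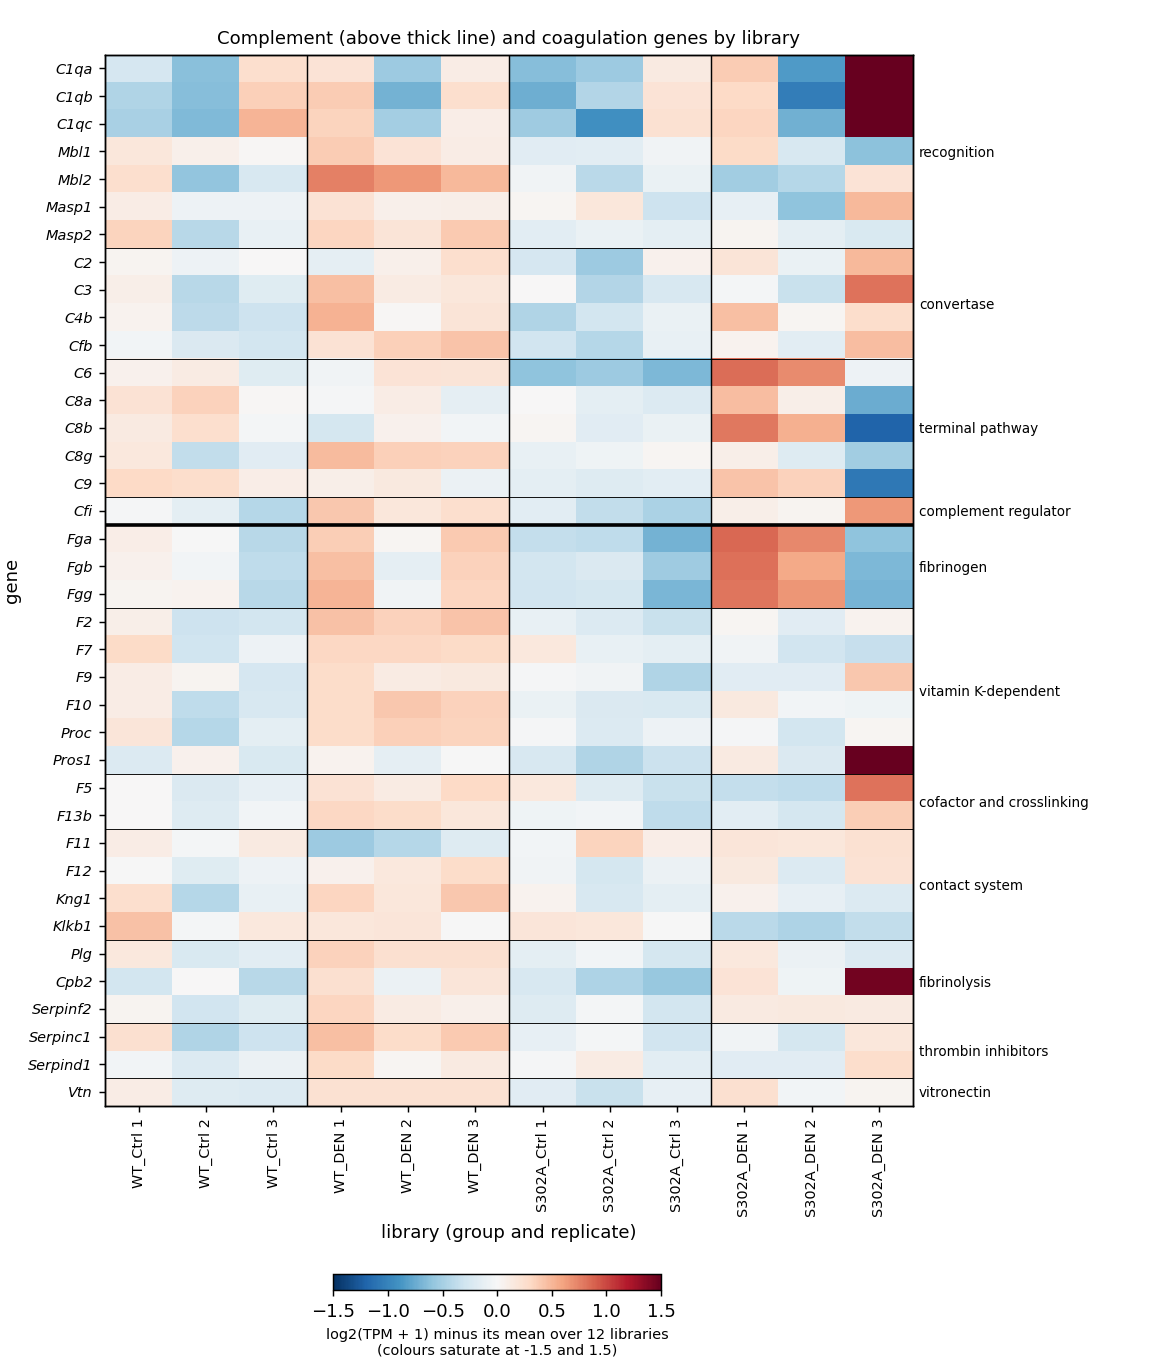
Heat map of log2(TPM + 1) for 38 genes (rows, by role, complement above the thick line) in 12 libraries (columns, by group), each as the difference from the gene's mean over the 12 libraries. In S302A_DEN replicates 1 and 2 the fibrinogen genes, C6, C8b and C9 are above their means, whereas in replicate 3 fibrinogen, C8b and C9 are below and C1q, Pros1 and Cpb2 are far above.

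Differences were tested on log2(TPM + 1) with limma, a linear model fitted to all 12120 genes, and a gene was called when its Benjamini-Hochberg adjusted p over those genes was below 0.05. With all 12 libraries 0 of 38 members were called in each of 7 comparisons. In the DEN comparison in WT livers 0 members were called (0.132% of all genes were), and 10 members (9 higher, 1 lower) had an unadjusted limma p below 0.05, against 8.26% of all genes. In S302A livers DEN gave 0 members (0.619% of genes), with 7 (6 higher, 1 lower) at unadjusted p below 0.05, against 16.4% of genes. Averaged over both genotypes, DEN gave 0 (1.34%), with 12 (11 higher, 1 lower) unadjusted, against 19.4%.

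The genotype comparisons gave no call either. S302A against WT in untreated livers gave 0 members called by limma (0.0330% of genes), with 1 lower at unadjusted p below 0.05, against 1.48% of genes. After DEN it gave 0 (0.380%), with 7 (1 higher, 6 lower) unadjusted, against 7.83%. The average S302A difference gave 0 (0.0165%), with 3 (1 higher, 2 lower) unadjusted, against 4.41%, and the interaction, the difference between the 2 DEN effects, gave 0 (0.0413%), with 3 (1 higher, 2 lower) unadjusted, against 5.06%. With median-of-ratios scaling, which centres each library on its typical gene, DEN in WT had 3 of 38 members at unadjusted p below 0.05, against 13.6% of genes, so the members' share above the background in that comparison was lost.

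Leaving out S302A_DEN replicate 3 left only replicates 1 and 2 in that group. Limma then called 6 of 38 members in the DEN comparison in S302A livers, all of them higher after DEN, against 2.43% of 11883 genes. They were the 3 fibrinogen genes and the terminal complement genes C6, C8b and C9. For all 6 the library left out held the lowest value of S302A_DEN. The S302A comparison after DEN without that library gave 5 members (C6, C8b and F11 higher, Mbl2 and F5 lower; 5.89% of genes), the interaction 1 (C6; 0.631%), and the average DEN effect 5 (C6, Cfi, Fga, Fgb and Fgg higher; 5.55%). In the DEN comparison in WT 0 members were called without that library (2.17% of genes), with 19 of 38 at unadjusted p below 0.05, against 21.8% of genes. In untreated S302A against WT limma called 0 (0.0337%), with 3 unadjusted, against 4.16%, and for the average S302A difference 0 (0.799%), with 9 unadjusted, against 19.0%. When median-of-ratios scaling was added to leaving out that library, a setting chosen after the data were seen, the 6 members were called again after DEN in S302A, together with Klkb1, which was lower, against 7.11% of genes.

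**Figure D2:**
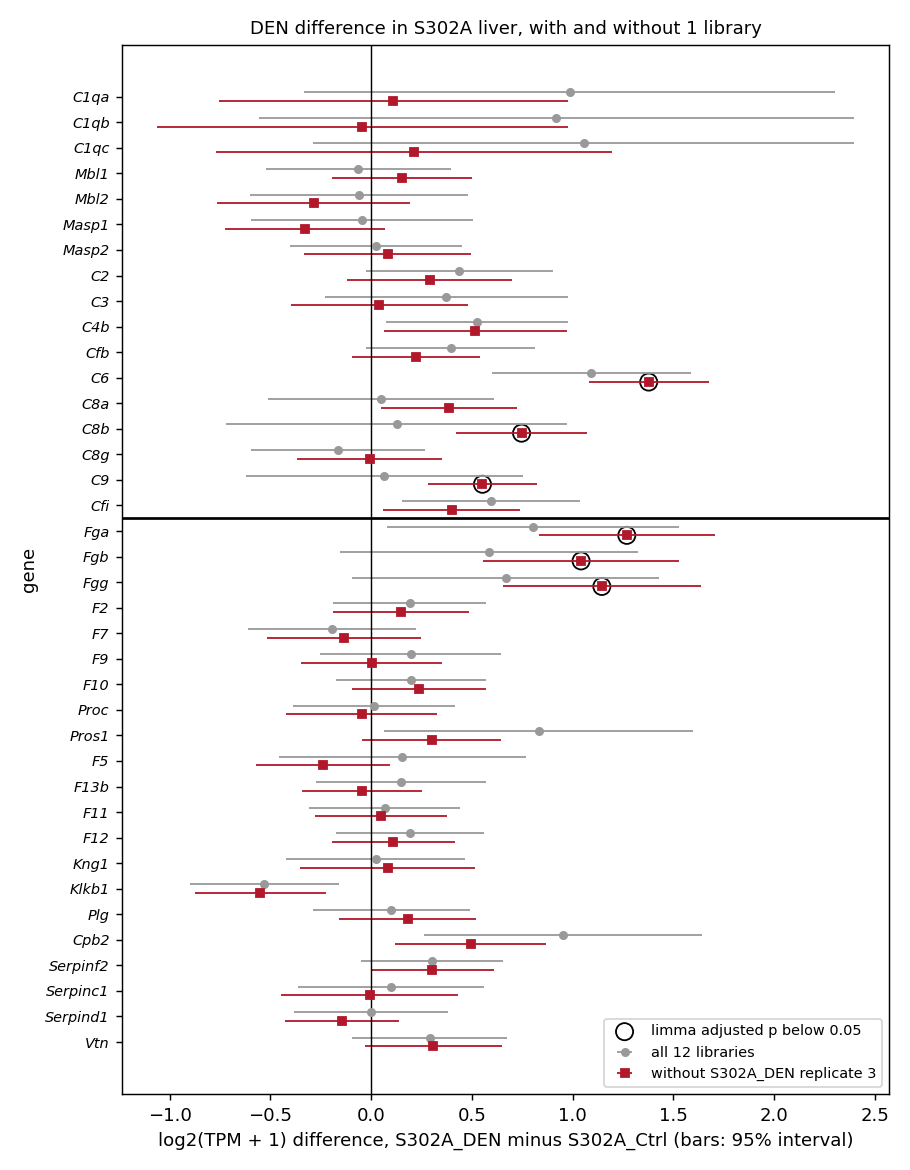
Difference in log2(TPM + 1) between S302A_DEN and S302A_Ctrl for the 38 genes with 95% limma intervals, for all 12 libraries (grey circles) and without S302A_DEN replicate 3 (red squares); rings mark limma adjusted p below 0.05. Without that library C6 lies at 1.38 and Fga at 1.27, and 6 genes are ringed.

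Fibrinogen, the clot precursor, is a hexamer of the chains encoded by Fga, Fgb and Fgg. On mm10 the genes lie on chromosome 3, Fgg from 83007724 to 83015049, Fga from 83026076 to 83033627 and Fgb from 83040141 to 83049863. Fga stood at 1748, 1630.2 and 1227 TPM in WT_Ctrl, 2115, 1674 and 2145 in WT_DEN, 1279.6, 1257 and 998 in S302A_Ctrl, and 2967, 2684 and 1071 in S302A_DEN. S302A_DEN replicates 1 and 2 were thus the highest of the 12 libraries, and replicate 3 lay inside the untreated S302A range.

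Fgb stood at 5146, 4320.3 and 1824 TPM in S302A_DEN, against 2395, 2504 and 2003 in S302A_Ctrl, and at 3975, 2641 and 3679.5 in WT_DEN, against 3040.4, 2833 and 2229 in WT_Ctrl. Fgg stood at 4904, 4447 and 1731 TPM in S302A_DEN, against 2296, 2341 and 1752 in S302A_Ctrl, and at 3998, 2719 and 3518 in WT_DEN, against 2897, 2906 and 2112 in WT_Ctrl. For both genes S302A_DEN held the 2 highest values and, in replicate 3, the lowest value of the 12 libraries. The ratio of Fgb to Fga TPM stayed between 1.58 and 2.01 in every library while the level of Fga ranged from 998 to 2967.

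With all libraries the DEN difference in S302A was 0.80 ± 0.33 (log2, SE) for Fga, 0.58 ± 0.34 for Fgb and 0.67 ± 0.35 for Fgg, with limma adjusted p of 0.277, 0.388 and 0.353. Without S302A_DEN replicate 3 it was 1.27 ± 0.20 for Fga (2.40-fold in mean TPM, limma adjusted p 0.0127), 1.04 ± 0.22 for Fgb (2.06-fold, 0.0373) and 1.14 ± 0.22 for Fgg (2.20-fold, 0.0277). In WT the DEN difference was 0.37 for Fga, 0.34 for Fgb and 0.37 for Fgg, with limma p of 0.285 to 0.342 before and 0.886 to 0.905 after adjustment. The interaction for Fga without that library was 0.90 ± 0.27, with a limma adjusted p of 0.160, so a difference between genotypes in the DEN effect did not pass.

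The terminal pathway genes encode the parts of the membrane attack complex: C6 binds early, C8 has 3 chains (C8a, C8b and C8g), and C9 forms the pore. C6, at chr15:4727175-4814967 on the plus strand, stood at 154, 159 and 129 TPM in WT_Ctrl, 141, 169 and 167 in WT_DEN, 96.2, 100.3 and 91.5 in S302A_Ctrl, and 263, 239 and 138 in S302A_DEN. Untreated S302A livers were the lowest group, below every WT library, and all 3 S302A_DEN libraries lay above all 3 S302A_Ctrl libraries.

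The DEN difference of C6 in S302A was 1.09 ± 0.23 (log2, 95% interval 0.60 to 1.59; 2.22-fold), with a limma adjusted p of 0.0548. It passed in 4 of 19 alternative settings, and the highest limma adjusted p was 0.325, in the fit of the 2 groups alone. It passed at 0.0490 with a pseudocount of 0.1 and at 0.0407 when only genes reaching 5 TPM in 3 libraries were tested. Without S302A_DEN replicate 3 it passed at 0.00226 with median-of-ratios scaling added and at 0.000845 without scaling (1.38 ± 0.14, 2.62-fold). Leaving out a WT library as well cannot change this difference. Without S302A_DEN replicate 3 and any 1 S302A_Ctrl library, C6 (limma adjusted p 0.00391 to 0.00571) and Fga (0.0271 to 0.0434) were called each time. Fgg was then called only without S302A_Ctrl replicate 2 (0.0462), and C8b, Fgb and C9 were not called. With only 1 S302A_DEN library left, the difference was 1.31 or 1.44 for C6 and 1.20 or 1.34 for Fga. With all libraries and median-of-ratios scaling C6 was at 0.78 ± 0.39, with a limma adjusted p of 0.263.

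In untreated livers C6 differed by -0.61 ± 0.23 between S302A and WT (95% interval -1.10 to -0.11), with a limma p of 0.0199 and an adjusted p of 1. In WT the DEN difference was 0.11 ± 0.23. The interaction was 0.98 ± 0.32 with all libraries (limma adjusted p 0.595) and 1.27 ± 0.18 without S302A_DEN replicate 3 (0.0149). The low untreated S302A level and the high level in S302A_DEN replicates 1 and 2 both enter that value.

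C8b, at chr4:104766317-104804548, stood at 181, 196 and 160.4 TPM in WT_Ctrl, 137, 172 and 160.2 in WT_DEN, 167, 145 and 153 in S302A_Ctrl, and 284, 239 and 71.1 in S302A_DEN. S302A_DEN thus held both the highest 2 values and the lowest value of the 12. The DEN difference in S302A was 0.13 ± 0.39 (log2) with all libraries and 0.75 ± 0.15 without replicate 3, with limma adjusted p of 0.865 and 0.0286.

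C9 stood at 502, 491 and 437 TPM in WT_Ctrl, 434, 451 and 383 in WT_DEN, 368, 357 and 366 in S302A_Ctrl, and 547, 519.9 and 193 in S302A_DEN. Untreated S302A libraries lay below all WT libraries, a difference of -0.39 ± 0.32 (log2; limma adjusted p 1) from WT_Ctrl. The DEN difference in S302A was 0.07 ± 0.32 (log2) with all libraries and 0.55 ± 0.12 without replicate 3, with limma adjusted p of 0.918 and 0.0448. With median-of-ratios scaling of all 12 libraries the differences of C8b and C9 were negative, -0.18 and -0.25.

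C8a, which lies 11.1 kb from C8b, stood at 257, 279 and 223 TPM in WT_Ctrl, 217, 238 and 200.3 in WT_DEN, 221, 198 and 191 in S302A_Ctrl, and 302.4, 234 and 130.5 in S302A_DEN. Untreated S302A libraries again lay below all WT_Ctrl libraries, by -0.31 ± 0.26 on the log2 scale (limma adjusted p 1). C8g, on chromosome 2, did not share this pattern and stood at 589, 409 and 469 TPM in WT_Ctrl, 735, 676 and 669.8 in WT_DEN, 489.5, 504 and 540.5 in S302A_Ctrl, and 559.8, 462 and 368 in S302A_DEN. WT_DEN was the high group for C8g, above all other libraries, with a DEN difference in WT of 0.52 ± 0.20 (limma adjusted p 0.477) and an interaction of -0.68 ± 0.28 (0.868). The ratio of C8g to C8b TPM was 1.93 and 1.97 in S302A_DEN replicates 2 and 1, 5.17 in replicate 3 and 2.09 to 5.38 in the other 9 libraries.

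**Figure D3:**
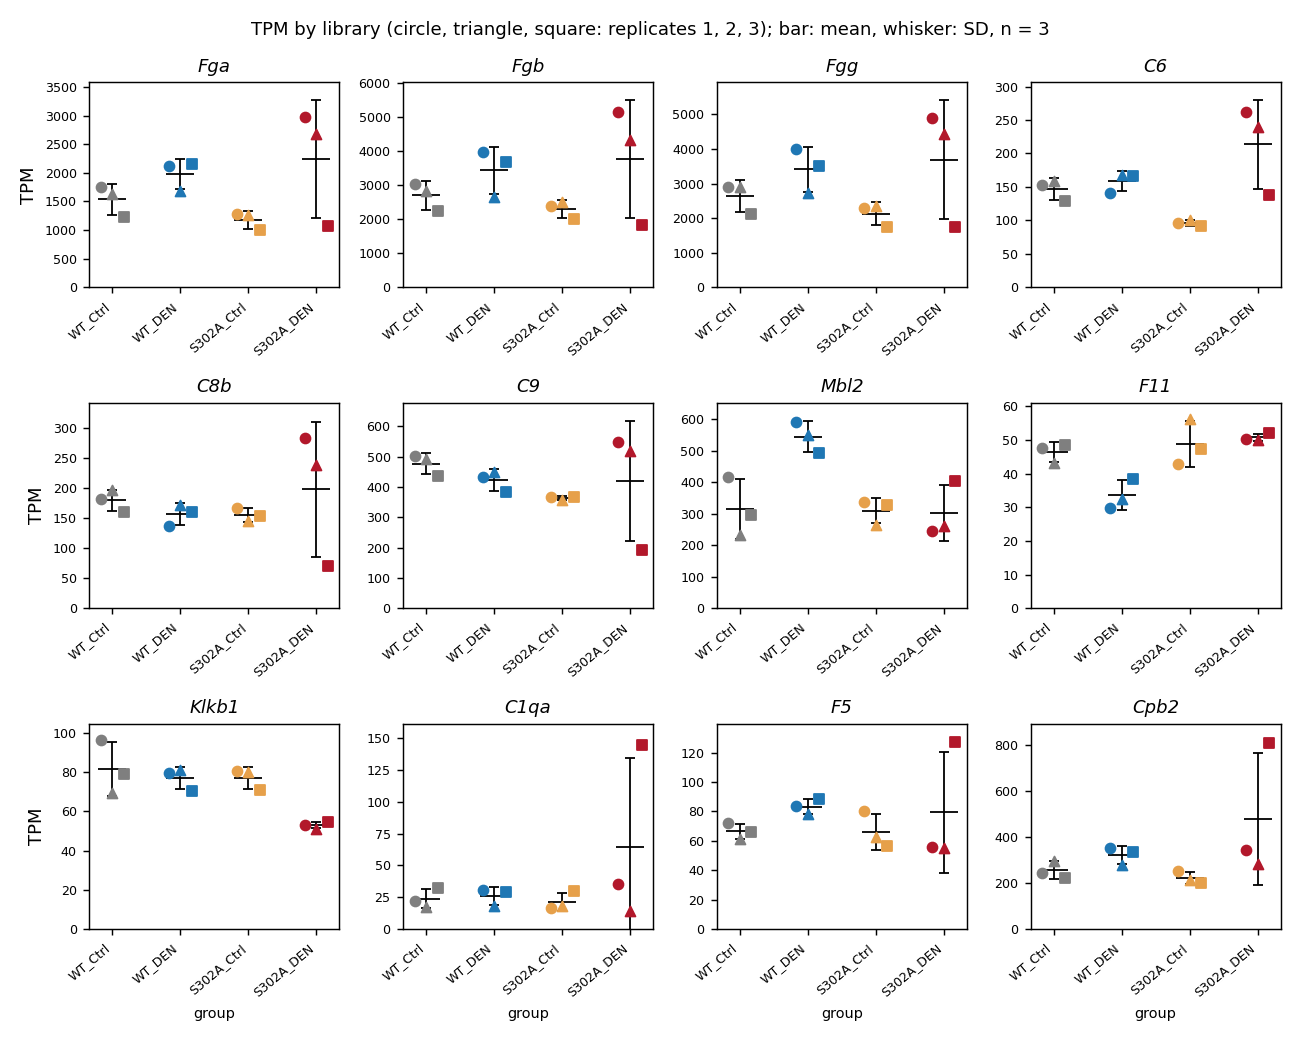
TPM of 12 genes by group (x axis) in each library, with markers for replicates 1 to 3, a bar at the group mean and whiskers of 1 SD (n = 3); each y axis starts at 0, where the whisker of C1qa in S302A_DEN is cut off. For Fga, Fgb, Fgg, C6, C8b and C9, S302A_DEN replicates 1 and 2 lie above all S302A_Ctrl libraries, and replicate 3 lies below replicates 1 and 2.

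Recognition starts with C1q for the classical pathway and with the mannose-binding lectins Mbl1 and Mbl2, with their proteases Masp1 and Masp2, for the lectin pathway. Mbl2, at chr19:30232942-30239687, stood at 417, 232 and 295 TPM in WT_Ctrl, 591, 550.5 and 491 in WT_DEN, 336, 263 and 326 in S302A_Ctrl, and 243, 259.9 and 402 in S302A_DEN. The 3 WT_DEN libraries were the highest of the 12 and overlapped no other group. The other 3 groups overlapped one another.

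For Mbl2 the DEN difference was 0.83 ± 0.25 in WT (log2, SE; 1.73-fold, limma adjusted p 0.313) and -0.06 ± 0.25 in S302A (0.903). After DEN, S302A differed from WT by -0.88 ± 0.25 (1.80-fold lower, limma adjusted p 0.210) with all libraries and by -1.11 ± 0.22 (2.16-fold lower, 0.0191) without S302A_DEN replicate 3. It was also the 1 member called in that comparison with median-of-ratios scaling of all 12 libraries (-0.93, limma adjusted p 0.0303; 1.73% of genes were called). The interaction was -0.89 ± 0.35 with all libraries and -1.11 ± 0.29 without replicate 3, with limma adjusted p of 0.837 and 0.123.

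Mbl1, the other lectin, had its lowest value, 147 TPM, in S302A_DEN replicate 3, with 192 and 276 in the other replicates and 201 to 294 elsewhere. Masp1 stood at 15.3 to 33.8 TPM and Masp2 at 142 to 250.3 TPM over the 12 libraries, and for Masp2 all WT_DEN values lay above those of both S302A groups. The 3 C1q genes followed each other: C1qa stood at 22.4, 17.1 and 32.3 TPM in WT_Ctrl, 31.1, 18.1 and 29.1 in WT_DEN, 16.9, 18.1 and 29.6 in S302A_Ctrl, and 35.2, 14.4 and 144 in S302A_DEN. The value in S302A_DEN replicate 3, the library with the highest summed macrophage markers, was 5.83-fold the mean of the other S302A_DEN replicates for C1qa, 6.92-fold for C1qb and 5.60-fold for C1qc. The part of macrophage content in these values was not tested.

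The convertase genes are C3, the central component, C4b and C2 of the classical convertase, and Cfb, the protease of the alternative one, and Cfi encodes the protease that inactivates C3b and C4b. C4b stood at 772, 565 and 598 TPM in WT_Ctrl, 1072, 756 and 849.6 in WT_DEN, 543, 616 and 693 in S302A_Ctrl, and 1018, 760.3 and 896 in S302A_DEN. DEN libraries lay above untreated ones in S302A, and in WT the 2 groups overlapped at 1 library each. The average DEN difference was 0.50 ± 0.15 (log2; limma adjusted p 0.117), and C4b and its near-identical copy C4a share sequence, so its single value is uncertain.

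Cfi, at chr3:129835884-129875332, stood at 346, 317 and 260.4 TPM in WT_Ctrl, 467, 396 and 417 in WT_DEN, 316, 272 and 252 in S302A_Ctrl, and 373, 363 and 553 in S302A_DEN. DEN libraries lay above untreated ones in both genotypes with no overlap. The average DEN difference was 0.54 ± 0.14 (limma adjusted p 0.0901) and passed at 0.0361 without S302A_DEN replicate 3 and at 0.0381 without replicate 2. With median-of-ratios scaling it was 0.29 ± 0.09 (limma adjusted p 0.101).

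Cfb stood at 439, 387 and 371 TPM in WT_Ctrl and 525, 577 and 605 in WT_DEN, without overlap, and at 333 to 416 in S302A_Ctrl and 402 to 620.4 in S302A_DEN, which overlapped. Its average DEN difference was 0.45 ± 0.14 (limma adjusted p 0.121), called at 0.0380 without S302A_DEN replicate 2. C3 ranged from 900.2 to 1300.2 TPM in untreated livers and from 971 to 2157 after DEN, the highest in S302A_DEN replicate 3. C2, which lies 85 bases from Cfb on chromosome 17, ranged from 29.3 to 61.2 TPM, and the ratio of C2 to Cfb was 0.0751 to 0.0859 in WT_DEN, below the 0.0879 to 0.117 of the other 9 libraries.

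Among the vitamin K-dependent factors, F2 encodes prothrombin, F7, F9 and F10 encode clotting proteases, and Proc and Pros1 encode the anticoagulant protein C and its cofactor protein S. F2 stood at 829, 627 and 643 TPM in WT_Ctrl, 1054, 990.0 and 1048 in WT_DEN, 721, 676 and 614 in S302A_Ctrl, and 793, 693 and 809 in S302A_DEN. F10 stood at 206, 146 and 162 TPM in WT_Ctrl, 231, 252 and 242 in WT_DEN, 178, 163 and 162 in S302A_Ctrl, and 212, 185 and 182 in S302A_DEN. For both genes the WT_DEN libraries were the highest of the 12 and overlapped no other group.

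The DEN difference in WT was 0.57 ± 0.17 for F2 (log2; 1.47-fold, limma adjusted p 0.325) and 0.51 ± 0.17 for F10 (1.41-fold, 0.397). All 6 vitamin K-dependent genes had a positive DEN difference in WT, from 0.09 to 0.57, none called, and 5 of 6 kept it with median-of-ratios scaling. After DEN, 5 of 6 were lower in S302A than in WT, with F7 at -0.53 ± 0.19 (limma adjusted p 0.394), F2 at -0.43 ± 0.17 (0.505) and Proc at -0.41 ± 0.18 (0.621). Pros1 was the exception and stood at 58.2 TPM in S302A_DEN replicate 3, against 13.7 to 21.1 in the other 11 libraries.

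Factor V (F5) is the cofactor of the protease that makes thrombin, and F13b encodes the carrier subunit of the enzyme that crosslinks fibrin. F5 stood at 71.9, 61.6 and 66.0 TPM in WT_Ctrl, 83.4, 78.4 and 88.2 in WT_DEN, 80.0, 62.4 and 56.5 in S302A_Ctrl, and 55.8, 55 and 127 in S302A_DEN. S302A_DEN held the lowest 2 values and the highest value. After DEN, S302A differed from WT by -0.18 ± 0.28 with all libraries and by -0.58 ± 0.15 without replicate 3 (limma adjusted p 0.941 and 0.0489), and this was the 1 of 19 alternative settings in which F5 was called. F13b ranged from 55.1 to 93.7 TPM.

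The contact system starts clotting on surfaces through F12, prekallikrein (Klkb1), kininogen (Kng1) and F11. F11 and Klkb1 are neighbours on chromosome 8, both on the minus strand and 4.66 kb apart. F11, at chr8:45241174-45262031, stood at 47.7, 43.2 and 48.6 TPM in WT_Ctrl, 29.9, 32.6 and 38.5 in WT_DEN, 42.8, 56.2 and 47.3 in S302A_Ctrl, and 50.4, 50.1 and 52.1 in S302A_DEN. WT_DEN was the low group for F11, below the other 9 libraries.

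Klkb1, at chr8:45266689-45294859, stood at 96.3, 69.3 and 79.2 TPM in WT_Ctrl, 79.8, 80.9 and 70.6 in WT_DEN, 80.6, 79.8 and 70.7 in S302A_Ctrl, and 53.2, 51.2 and 54.5 in S302A_DEN. S302A_DEN was the low group for Klkb1, below the other 9 libraries, and replicate 3 did not stand apart. The neighbours therefore differed in which DEN group was low, and the ratio of F11 to Klkb1 TPM was 0.946 to 0.979 in S302A_DEN, 0.532 to 0.704 in S302A_Ctrl, 0.375 to 0.546 in WT_DEN and 0.496 to 0.623 in WT_Ctrl.

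For F11 the DEN difference was -0.46 ± 0.17 in WT (log2; limma adjusted p 0.477) and 0.07 ± 0.17 in S302A (0.835), and S302A differed from WT after DEN by 0.59 ± 0.17 (1.51-fold, 0.238). For Klkb1 the DEN difference was -0.07 ± 0.17 in WT (0.987) and -0.53 ± 0.17 in S302A (1.45-fold lower, 0.177), and S302A differed from WT after DEN by -0.53 ± 0.17 (1.45-fold lower, 0.301). F11 passed in the S302A comparison after DEN without S302A_DEN replicate 3 (0.57 ± 0.15, limma adjusted p 0.0492). With median-of-ratios scaling of all 12 libraries Klkb1 was the 1 member called after DEN in S302A (-0.84 ± 0.20, limma adjusted p 0.0403; 5.37% of genes) and for the average DEN effect (-0.55 ± 0.14, 0.0485; 5.84% of genes).

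F12 ranged from 170.1 to 247 TPM and Kng1 from 1066 to 1891 TPM, the highest of both in WT_DEN replicate 3. Kng1 has a near-identical copy, Kng2, so its single value is uncertain. The comparisons of S302A after DEN and of DEN in WT share the WT_DEN libraries, and those of DEN in S302A share S302A_DEN with the former, so such pairs of values are not independent.

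**Figure D4:**
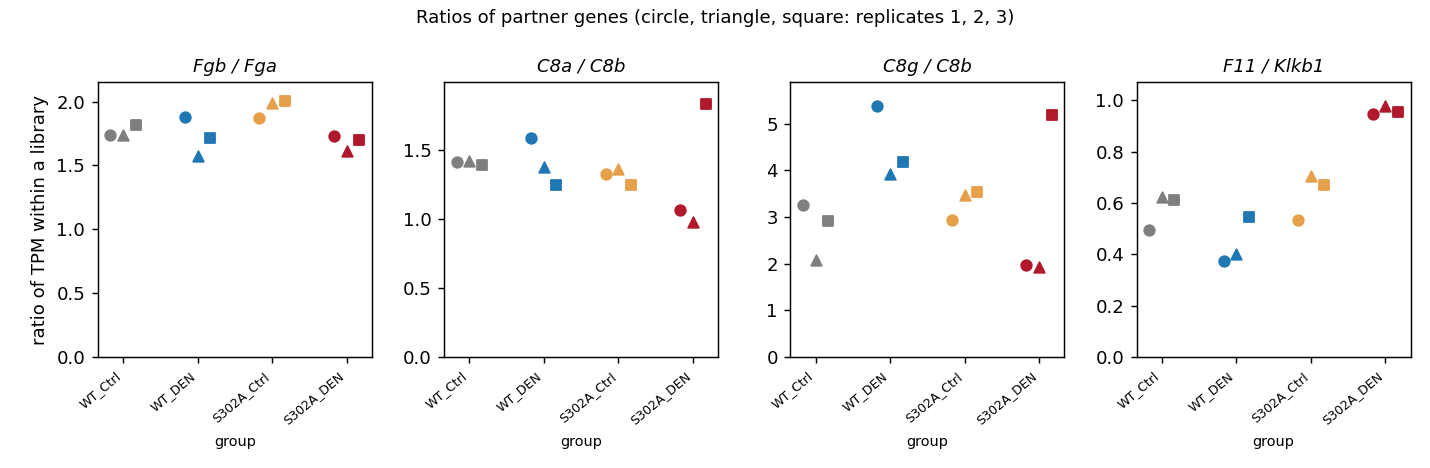
Ratio of the TPM of 2 genes within each library (y axis, from 0) by group (x axis), for Fgb to Fga, C8a to C8b, C8g to C8b and F11 to Klkb1, with markers for replicates 1 to 3. The Fgb to Fga ratio stays between 1.58 and 2.01, whereas the F11 to Klkb1 ratio is 0.946 to 0.979 in S302A_DEN, above the other 9 libraries.

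Fibrinolysis rests on plasminogen (Plg), which is opposed by the carboxypeptidase encoded by Cpb2 and by the plasmin inhibitor encoded by Serpinf2. Cpb2 stood at 244, 297 and 222 TPM in WT_Ctrl, 350.3, 278 and 336 in WT_DEN, 249.8, 215 and 199 in S302A_Ctrl, and 341, 283 and 808 in S302A_DEN. All S302A_DEN libraries lay above all S302A_Ctrl libraries, with replicate 3 far above the rest. The DEN difference in S302A was 0.95 ± 0.32 with all libraries (log2; 2.16-fold, limma adjusted p 0.186) and 0.49 ± 0.17 without replicate 3 (0.164), and the average DEN difference was called without replicate 2 (0.79, 0.0420).

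Plg stood at 773 to 1032 TPM in all groups but WT_DEN, where it was 1094 to 1175. Serpinf2 stood at 387 to 389 TPM in the 3 S302A_DEN libraries, 373 to 439.7 in WT_DEN and 289 to 361 in untreated livers. Of the thrombin inhibitors, Serpinc1 (antithrombin) stood at 1351 to 1529 TPM in WT_DEN, above the 819 to 1323 of the other 9 libraries, and Serpind1 (heparin cofactor II) ranged from 232 to 324 TPM. Vitronectin (Vtn), an adhesion protein that also binds the terminal complement complex, stood at 1864 to 1873 TPM in WT_DEN, 1383 to 1716 in WT_Ctrl, 1268 to 1459 in S302A_Ctrl and 1552 to 1876 in S302A_DEN. None of these 5 genes was called in any of the 7 comparisons with all 12 libraries, without S302A_DEN replicate 3 or with median-of-ratios scaling of all 12.

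Complement and coagulation genes were then set side by side. The DEN difference was positive for 14 of 17 complement genes in WT (median log2 difference 0.19) and 13 of 17 in S302A (0.37), none of them called. For coagulation it was positive for 19 of 21 in WT (0.33) and 18 of 21 in S302A (0.19). Over all 12120 genes the median was 0.13 in WT and 0.27 in S302A, with 70.7% and 79.3% of genes higher, so the S302A counts lay near the background. Without S302A_DEN replicate 3 the S302A counts were 13 of 17 (0.21) and 14 of 21 (0.11), against 49.3% of all genes.

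These splits depended on the scaling. With median-of-ratios scaling the median of all genes moved to -0.02 in WT and 0.01 in S302A. Then 9 of 17 complement genes (median 0.02) and 18 of 21 coagulation genes (0.16) were higher after DEN in WT, and 9 of 17 (0.06) and 5 of 21 (-0.13) in S302A. Fibrinogen was higher in 3 of 3 genes in both genotypes and under both scalings.

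Between genotypes, 15 of 17 complement genes (median -0.13) and 17 of 21 coagulation genes (-0.05) were lower in untreated S302A than in WT. Over all genes 8187 of 12120 were lower (median -0.07). After DEN 10 of 17 (-0.05) and 16 of 21 (-0.17) were lower, against 4815 of 12120 genes (median 0.07). Without S302A_DEN replicate 3 they were 13 of 17 (-0.20) and 17 of 21 (-0.28), and the median of all genes was then -0.20 as well. With median-of-ratios scaling the untreated split was 10 of 17 and 7 of 21 lower, against 5797 of 12120 genes. After DEN it was 11 of 17 and 17 of 21, against 5595 of 12120 genes. For each library the median deviation of the genes from their own means over the 12 libraries was also taken. The complement median minus the coagulation median of these deviations was 0.15, 0.00 and 0.21 in S302A_DEN and -0.06, -0.17 and 0.17 in S302A_Ctrl. It was 0.04, -0.04 and -0.08 in WT_DEN and -0.01, -0.02 and 0.11 in WT_Ctrl, so the 4 groups overlapped.

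S302A_DEN replicate 3 was low in some roles, high in others and mixed in several. Its value exceeded those of replicates 1 and 2 for 87.0% of all genes and was under both for 5.21%, whereas of the 38 members 21 lay above and 15 below. All 5 terminal pathway genes and all 3 fibrinogen genes lay below both. Other roles were split, such as recognition with 5 above and 2 below, and the vitamin K-dependent genes with 4 and 2. Low values were not confined to members: of 18 acute-phase genes 5 lay above and 11 below, and of 8 hepatocyte markers 4 and 3. C8b was 71.1 TPM, against a mean of 261 in the other replicates, C9 193 against 534, and Fga 1071 against 2826. All 3 C1q genes, C3, Cfi, Pros1, F5 and Cpb2 lay above all 11 other libraries, as did Masp1, C2, Cfb, F9 and F13b, against 70.8% of all genes. After median-of-ratios scaling 6 of these 13 (Masp1, C2, Cfb, Cfi, F9 and F13b) lay below the mean of replicates 1 and 2, and C1q, C3, Pros1, F5 and Cpb2 remained above it. The part of the liver tumour markers' level in this library was not tested.

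With all 12 libraries, few other genes of the same pathways that are not members were called. Of 28 other complement genes 19 were measured and of 27 other coagulation genes 18, and with all libraries limma called 0 of either list after DEN in WT, with 5 of 19 and 4 of 18 at unadjusted p below 0.05, against 8.26% of all genes, and 4 and 2 with median-of-ratios scaling, against 13.6%. After DEN in S302A 1 was called (0.619% of all genes were). That gene, Serpina10, the protein Z-dependent inhibitor of factor X, stood at 192, 221 and 209 TPM in S302A_DEN and 102, 102 and 88.6 in S302A_Ctrl. It rose by 1.08 ± 0.18 (log2; limma adjusted p 0.0234), and replicate 3 lay between the other S302A_DEN replicates. Its average DEN difference was 0.73 ± 0.13 (0.0251). Other settings gave more calls after DEN in S302A. With median-of-ratios scaling 4 of 19 other complement genes were called lower and 1 of 18 other coagulation genes higher, against 5.37% of all genes. Without S302A_DEN replicate 3, 1 of 19 other complement genes was called higher and 3 lower. In that setting 2 of 17 other coagulation genes were called higher, against 2.43% of all genes.

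Cd59a, which encodes an inhibitor of the membrane attack complex, was lower in S302A than in WT after DEN, at 18.8, 14.5 and 27.2 TPM against 48.2, 54.8 and 57.0. That difference was -1.40 ± 0.25 (log2; limma adjusted p 0.0390), and the groups did not overlap. Proz, which encodes protein Z, stood at 81.4 ± 6.12 TPM in S302A_DEN and 126 ± 3.97 in WT_DEN. In untreated livers it was 73.5 to 91.0 in S302A_Ctrl and 74.8 to 110 in WT_Ctrl, with overlap. Averaged over untreated and DEN livers, its S302A difference was -0.36 ± 0.13 (limma adjusted p 0.868).

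All 18 acute-phase genes on the list were measured, and 17 of 18 were higher after DEN in S302A (median log2 difference 0.59) and 12 of 18 in WT (0.28), against 79.3% and 70.7% of all genes. With median-of-ratios scaling they were 13 of 18 (0.32) and 11 of 18 (0.12), against 50.8% and 47.2% of all genes. With all libraries 1 of 18 was called after DEN in S302A, against 0.619% of all genes. With scaling 2 were called, against 5.37%. The gene called without scaling was Saa3, at 1.98 ± 0.30 (limma adjusted p 0.0170). Saa3 stood at 33.7, 23.9 and 46.6 TPM in S302A_DEN and 4.96, 9.28 and 9.91 in S302A_Ctrl. It was 13.5 to 23.3 in WT_Ctrl and 13.5 to 17.3 in WT_DEN, so the low untreated S302A level enters this difference. For the average DEN effect 1 of 18 was called, against 1.34% of all genes, and 0 with median-of-ratios scaling, against 5.84%. That gene, Steap4, which encodes a metal reductase, rose by 0.96 ± 0.21 without scaling (log2; limma adjusted p 0.0457). It stood at 29.5 ± 4.73 TPM (SD, n = 3) in WT_Ctrl and 50.2 ± 17.4 in WT_DEN, which overlapped. In S302A_Ctrl it was 24.2 ± 2.98 and in S302A_DEN 59.6 ± 18.1, without overlap. Of the transcription factor genes set beside the members, Hnf4a stood at 107 to 126 TPM in untreated livers and 144 to 187 after DEN, without overlap, and Cebpa at 95.6 to 162 and 102 to 131, with overlap.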

How the data were processed

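The deposited files hold TPM values for each gene symbol in 12 liver RNA libraries; kallisto and the mm10 build are named in the submitters' processing notes, without a version. In every file the lowest TPM value, as deposited, is 1, so a gene at 1 is at the floor and its true level is unknown. TPM carries no read counts, so depth and counting error are not known. The 4 groups follow the labels, with n = 3 each. No 2 of the 66 library pairs were identical.

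Genes above 1 TPM in at least 3 libraries were tested on log2(TPM + 1) with limma 3.58.1 in R 4.3.3, in 1 model over the 4 groups with a mean-variance trend, 7 contrasts and Benjamini-Hochberg adjustment over all genes tested. Differences on this scale understate changes of low genes. The code was tested on simulated data. Alternatives were a pseudocount of 0.1, other filters, median-of-ratios scaling, a replicate block, the 2 groups alone and leaving out each library. Combining scaling with the removal of S302A_DEN replicate 3, and removing a second library, were added after the data were seen.

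The members and all gene lists were chosen with earlier results of these data known. For each contrast the 3 members with the lowest p were described in full; members called under an alternative were described too, chosen after their values were seen, and the remaining members are given by range. Gene positions are from GENCODE M21 on mm10 and promoter sequences from RefSeq on GRCm38.p6; no promoter was found in the table for C1qa, Masp1, C2, C4b, Cfb, Cfi, Proc, Kng1 and Plg. C4b and Kng1 have near-identical copies that transcript assignment could split. A result for 1 other complement gene is not reported here.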

Additional observations from a re-analysis of the deposited data

Results flagged for a closer look

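The DEN effect on C6 differed between genotypes without S302A_DEN replicate 3, by 1.27 ± 0.18 on the log2 scale, with a limma adjusted p of 0.0149 for the interaction, and with median-of-ratios scaling added by 1.44, with an adjusted p of 0.0223. With all 12 libraries the adjusted p was 0.595. For C9 the interaction passed only with that library left out and scaling added together, among the settings run, at 0.90 with an adjusted p of 0.0496. No group reached 4 libraries, so single libraries were not tested as outliers.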

How the results depend on the processing

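The 3 members with the lowest p in each of the 7 contrasts kept their direction under every alternative run; none was called with all libraries, and 20 of their values passed under an alternative. Other members changed sign, such as C8b and C9 for DEN in S302A with median-of-ratios scaling (-0.18 and -0.25). Counts of called genes moved most. With no filter, over all 31253 genes, they were 1 (DEN in WT), 4 (DEN in S302A), 0 (S302A untreated), 9 (S302A after DEN), 2 (average DEN) and 0 (average S302A). Fits of the 2 groups alone gave 147 for DEN in WT, 17 for DEN in S302A, 2 for S302A untreated and 4 for S302A after DEN. A filter at 5 TPM gave 132 genes and 1 member for DEN in S302A, and a pseudocount of 0.1 gave 1 member there and 5 genes for average S302A. Median-of-ratios scaling gave 651 genes and 1 member for DEN in S302A, 210 and 1 for S302A after DEN, 12 genes for the interaction and 708 and 1 for average DEN. Its complement and coagulation medians (log2) were 0.0161 and 0.16 for DEN in WT, 0.0560 and -0.13 for DEN in S302A, 0.14 and -0.00724 for average DEN, and the coagulation median was -0.30 for the interaction. Scaling without S302A_DEN replicate 3 gave 210 genes for DEN in WT, 845 genes and 7 members for DEN in S302A, 425 and 7 for S302A after DEN, 94 and 2 for the interaction, 1170 and 9 for average DEN and 35 genes for average S302A. Its complement medians were 0.0137 for DEN in WT and 0.13 for average DEN, and its coagulation medians 0.15 for DEN in WT, -0.0225 for S302A after DEN and 0.0260 for average S302A. Leaving out libraries gave 1 to 258 genes for DEN in WT, 16 to 335 for DEN in S302A, 0 to 12 for S302A untreated, 6 to 700 for S302A after DEN, 2 to 75 for the interaction, 17 to 1037 for average DEN and 1 to 95 for average S302A. The highest of these counts came without S302A_DEN replicate 3 for DEN in WT, S302A after DEN, the interaction and average S302A, without S302A_DEN replicate 2 for DEN in S302A and average DEN, and without WT_Ctrl replicate 3 for S302A untreated. The lowest came without WT_DEN replicate 3 for DEN in WT, S302A after DEN and average DEN, and without S302A_Ctrl replicate 1 for DEN in S302A. Members called then ran from 0 to 7 for DEN in S302A (the highest without both S302A_DEN replicate 3 and WT_Ctrl replicate 1), 0 to 5 for S302A after DEN, 0 to 1 for the interaction and 0 to 5 for average DEN. The complement median ran from 0.14 to 0.43 for DEN in WT, and the coagulation median from 0.0573 to 0.27 for DEN in S302A and -0.27 to -0.0180 for the interaction. A lone library left in a group was assumed to vary like the others. The cause of these moves was not tested.

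With a replicate block the counts were 5 genes for DEN in WT, 87 for average DEN and 6 for average S302A, and 0 members were called by limma in any contrast. Same-numbered libraries correlated at -0.11 to 0.28 and 7 of 12 libraries correlated best with their own number. Since not every correlation exceeded 0.1, the block was kept as an alternative only.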
